A study of Mus musculus with 16 samples.

Results

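The genes of histamine synthesis, breakdown and reception (Hdc, Hnmt, Hrh1, Hrh2 and Hrh4) were followed by name over every array of a mouse microarray series on CD11b+ myeloid cells. Of the 5 genes listed, 4 had a probe named through the symbol table, with 7 probes in all, out of 20659 symbols on the array. Hdc and Hrh4 each had 1 probe, Hnmt had 2 and Hrh1 had 3. No probe was named Hrh2, and Hrh2 is not analysed here. Each of these 4 genes passed the minimum for testing, a signal well above background on 2 or more arrays.

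The series compared WT mice with STAT4-/-, STAT6-/- and HDC-/- mice, in CD11b+ cells from spleen or from bone marrow, on a control diet or after 3 months of a high-fat diet (HFD), which the submitters used as a model of atherosclerosis. There were 16 arrays, 1 for each genotype, tissue and diet, and each RNA was a pool of CD11b+ cells from 5 mice, all labelled male. The strain, the age, the composition of the control diet and the deleted part of each targeted gene are not stated in the labels. CD11b (Itgam), an integrin chain carried by neutrophils, monocytes, macrophages and some natural killer and dendritic cells, defines a gate that holds many cell types.

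Histidine decarboxylase, encoded by Hdc, makes histamine from histidine in a single step that needs pyridoxal phosphate. Mast cells and basophils store histamine in granules, and immature CD11b+ myeloid cells of the marrow are also known to transcribe Hdc. Histamine N-methyltransferase, encoded by Hnmt, inactivates histamine inside cells by methylation, and the receptors H1, H2 and H4 couple mainly to Gq, Gs and Gi proteins.

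The 250 bases before the start of the enzyme genes are shown because 2 of the 4 genotypes are labelled as lacking a STAT factor and both genes differed between tissues. They come from the RefSeq promoter table on GRCm38.p6, which is a newer build than the mm9 of the array design. Capitals mark a GC box (GGGCGG), sought on both strands together with 2 STAT sites (TTCNNNGAA, and the same ends with a gap of 4 bases) and a GATA site (AGATAA).
Hdc, chr2:126618679-126618928, minus strand: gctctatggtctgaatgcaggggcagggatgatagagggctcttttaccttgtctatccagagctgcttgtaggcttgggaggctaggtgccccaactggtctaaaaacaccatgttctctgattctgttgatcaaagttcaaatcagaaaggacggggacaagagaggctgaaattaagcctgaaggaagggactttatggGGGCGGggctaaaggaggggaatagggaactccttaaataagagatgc
Hnmt, chr2:24049380-24049629, minus strand: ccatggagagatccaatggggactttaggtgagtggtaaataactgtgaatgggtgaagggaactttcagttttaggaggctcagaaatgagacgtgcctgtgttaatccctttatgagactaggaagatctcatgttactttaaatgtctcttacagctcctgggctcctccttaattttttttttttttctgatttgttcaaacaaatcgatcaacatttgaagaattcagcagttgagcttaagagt
The Hdc window held 1 GC box, whose first base lay 48 bases before the start, and no match to either STAT site or the GATA site. The Hnmt window held no match to any of the 4 motifs and had a GC content of 38.8%, against 48.8% for Hdc. Hrh1 had 4 windows in the table, of which 2 held a GC box, 1 held a GATA site and none held a STAT site. Among all 32851 windows of this length, 32.7% held a GC box, 7.02% the STAT site with a 3-base gap, 5.85% the STAT site with a 4-base gap and 9.99% the GATA site. A missing match says only that these letters are not in this window.

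Levels are log2 of the processed signal minus the 75th percentile of the array, so that 0 is the level of a probe at that percentile. Between 59.9% and 85.3% of probes were well above background on an array, with the lowest shares on the slide of the STAT6-/- and HDC-/- marrow, and no spot was saturated. Itgam was well above background on every array. Some arrays went against their labels or their tissue. The 4 control-diet arrays labelled STAT4-/- and HDC-/- had Y-linked Ddx3y levels of -9.27 to -6.02, against 0.53 to 2.05 on the 12 other arrays, all labelled male. The arrays labelled STAT4-/- on HFD had Stat4 levels of 3.35 in spleen and 2.60 in marrow, above the 0.0028 to 1.15 of WT. On control diet the spleen array of that label had 0.42, below WT spleen (1.15 and 1.035). The marrow array of that label on control diet had 0.27, above WT marrow (0.0028 and 0.044). The STAT4-/- genotype is therefore named by label throughout. Stat6 was at 2.39 to 2.90 in STAT6-/- and 3.29 to 4.0 in WT, ranges that did not overlap, and at 2.44 and 2.19 on the control-diet arrays labelled STAT4-/-. The Stat6 difference between STAT6-/- and WT was not called (limma adjusted p = 0.681). The STAT4-/- spleen array on HFD had the lowest B and T cell means and the highest mature neutrophil mean of the spleen arrays. The HDC-/- marrow array on control diet had the highest B and T cell means and the lowest mature neutrophil mean of the marrow arrays, while its primary granule genes lay within the marrow range and its pro-B and pre-B cell mean was far above that of spleen. These are called the 2 tissue-outlying arrays. Both diets of a genotype shared a slide, whereas the tissues lay on different slides, so that tissue and slide cannot be told apart. With 1 array per group, p-values measure the spread left after genotype within tissue and diet within tissue were removed.

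Hdc, the targeted gene of the HDC-/- mice, was examined first as a check of the labels. In spleen its log2 level was 5.04 in WT on control diet and 4.14 on HFD. It was 4.56 and 5.00 on the arrays labelled STAT4-/- and 4.41 and 3.91 in STAT6-/-, in the same order of diets. The spleen HDC-/- arrays had 1.45 and 0.83. In marrow, WT had 5.63 and 5.52, STAT6-/- had 5.64 and 5.46, and HDC-/- had 1.38 and 1.77. The STAT4-/- marrow array on control diet had 5.24, and the spot on its HFD partner was marked as faulty by the scanner software and left out, so every Hdc value rests on 15 arrays. All 4 HDC-/- arrays lay below all 11 others, with a gap of 2.13 between the nearest arrays.

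The HDC-/- arrays averaged 1.36 ± 0.39 (SD, n = 4) and the other usable arrays 4.96 ± 0.62 (SD, n = 11), a 12.1-fold lower Hdc level in HDC-/-. In the exact two-sided permutation test p was 0.000733, the smallest that 1365 assignments can give. The test shuffled arrays freely over genotype, tissue and diet and took each as independent. The 4 HDC-/- arrays are a single pool for each tissue and diet, and whether the pools of both tissues share mice is not known here. The Hdc spot was still well above background on every HDC-/- array, with processed signals of 3440 to 6140, against 35100 to 80500 on the other arrays used. The labels do not state where the probe lies relative to the deleted part, so what the remaining signal is cannot be told from these files.

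**Figure D1:**
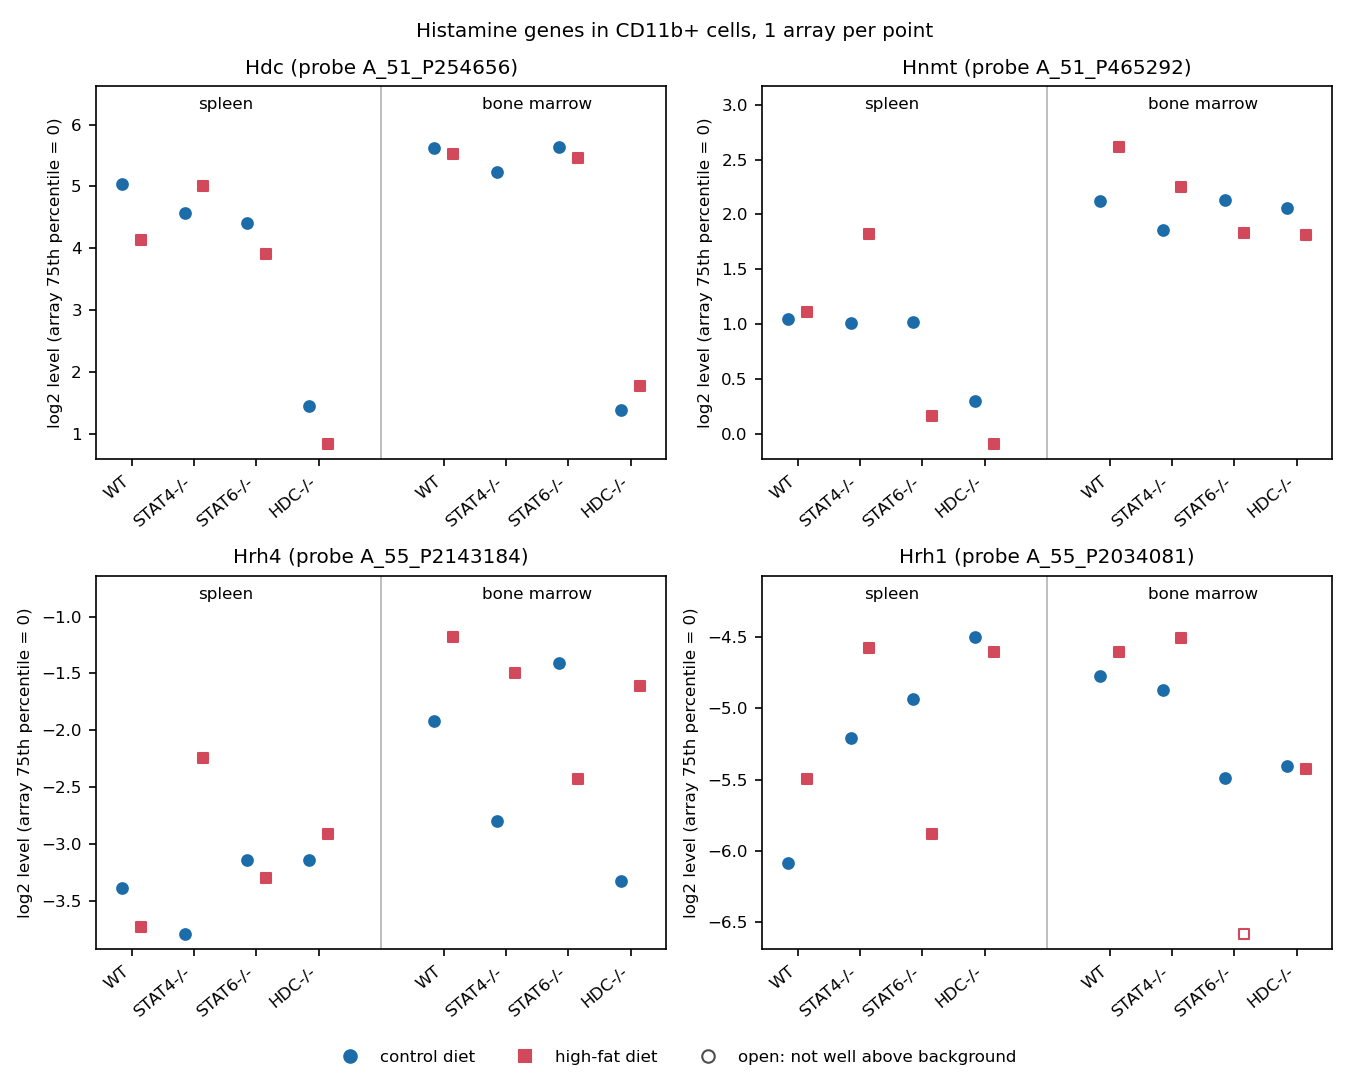
Log2 level (vertical axis, 75th percentile of each array = 0) of Hdc, Hnmt, Hrh4 and Hrh1 by genotype (horizontal axis) in spleen and bone marrow. Each point is 1 array, circles for control diet and squares for HFD, open where the spot was not well above background. The 4 HDC-/- arrays sit between 0.83 and 1.77 for Hdc, below all others, and Hnmt in marrow (1.81 to 2.62) sits almost wholly above Hnmt in spleen (-0.10 to 1.82).

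Between tissues, the synthesis gene, the breakdown gene and the H4 receptor were all lower in spleen than in marrow CD11b+ cells. Hdc was 1.77-fold lower in spleen, Hnmt 2.45-fold lower and Hrh4 2.27-fold lower, and 3 of the 4 tested genes were called at an adjusted p under 0.05 by limma with Benjamini-Hochberg adjustment. The background was high, since 32.1% of all 28972 features were called between tissues, with a median difference of -0.06 over all features. That median was -0.52 with normexp, in which a difference is to be read against it. The tissues also differed in cell makeup, and in bulk RNA fewer cells of a type and less RNA per cell cannot be told apart.

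For Hdc, the 6 spleen arrays of genotypes other than HDC-/- ranged from 3.91 to 5.04 with a median of 4.49, and the 5 usable marrow arrays from 5.24 to 5.64 with a median of 5.52. These ranges did not overlap over the spots used, although the faulty spot, at 3.92 if kept, would lie within the spleen range. Spleen was lower in 6 of 7 matched pairs, and the exception was the HDC-/- pair on control diet. The fitted difference over all genotypes was -0.82 (SE 0.22, limma adjusted p = 0.0197, 15 arrays). It was -0.92 (limma adjusted p = 0.0394) without the HDC-/- arrays, which was tried after the data were seen. The call was lost when the faulty spot was kept at its value (-0.65, limma adjusted p = 0.0539). It was also lost without the WT spleen HFD, the WT marrow control or the HDC-/- marrow HFD array, with differences of -0.80 to -0.73 and limma adjusted p of 0.0509 to 0.0599.

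Hnmt was lower in spleen than in marrow in all 8 matched pairs. The levels of probe A_51_P465292 ran from -0.10 to 1.82 in spleen with a median of 1.01, and from 1.81 to 2.62 in marrow with a median of 2.09. The ranges met only at the STAT4-/- spleen array on HFD, 1 of the 2 tissue-outlying arrays. The lowest levels were those of HDC-/- spleen, 0.29 on control diet and -0.10 on HFD, and of STAT6-/- spleen on HFD, 0.16. The fitted difference was -1.29 (SE 0.21, limma adjusted p = 0.00257, 16 arrays). It was called in each other setting and with any single array left out, except without the 4 arrays of low Y-linked signal (-1.13, limma adjusted p = 0.0525). The second Hnmt probe, A_55_P2043509, gave -0.96 (SE 0.25, limma adjusted p = 0.0155 over 34733 probes) and was also lower in spleen in 8 of 8 pairs. This probe lost the call without the HDC-/- arrays (-0.75, limma adjusted p = 0.0871) and over only WT and STAT6-/- (-0.91, limma adjusted p = 0.0755).

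Hrh4, the Gi-coupled histamine receptor of blood cells, was dim but well above background on all 16 arrays, with signals of 107 to 775. Its spleen levels ran from -3.79 to -2.25 with a median of -3.22, and its marrow levels from -3.33 to -1.18 with a median of -1.76. The ranges overlapped. The highest spleen array was STAT4-/- on HFD and the lowest marrow array was HDC-/- on control diet, the same 2 tissue-outlying arrays. Spleen was lower in 7 of 8 matched pairs, and the fitted difference was -1.19 (SE 0.32, limma adjusted p = 0.0196). The call was lost without the arrays of low Y-linked signal (-1.31, limma adjusted p = 0.0556). It was also lost when the WT spleen HFD, the STAT4-/- spleen control, the STAT6-/- spleen HFD or the STAT4-/- marrow HFD array was left out, with differences of -1.11 to -0.98.

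**Figure D2:**
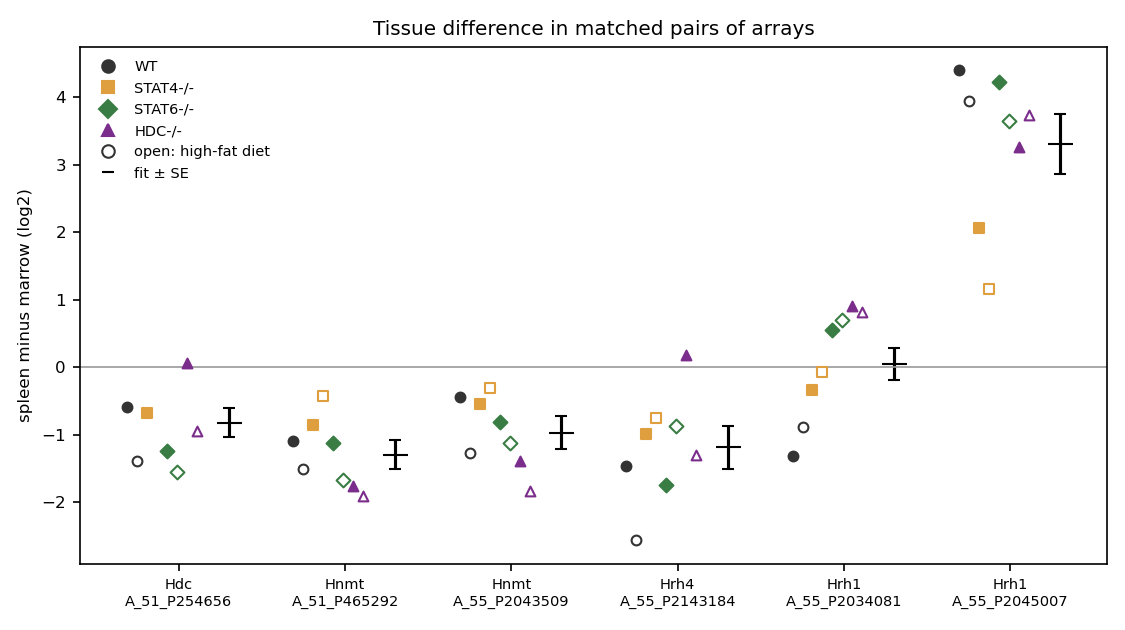
Log2 difference of spleen minus marrow (vertical axis) for 6 probes of the histamine genes (horizontal axis). Each point is a matched pair of arrays of 1 genotype and diet, filled for control diet and open for HFD, and the bar is the fitted difference ± SE. Hnmt is below 0 in 8 of 8 pairs with both probes, whereas the Hrh1 probes A_55_P2034081 and A_55_P2045007 part by more than 3 log2 units.

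Markers of the cells known to hold histamine, and of granulocytes, also differed between the tissues. Of the 14 basophil and mast cell markers with a probe, 10 to 14 were above background on each marrow array and 11 to 14 on each spleen array. The log2 of their summed level was 2.45 to 5.01 in marrow and 1.23 to 3.32 in spleen, and their mean log2 level was -3.19 to -1.63 and -3.77 to -1.44, so that the tissues overlapped on both measures. Single markers went both ways, with 4 called higher and 3 called lower in spleen. Of all features, 14.7% were called higher and 17.3% lower in spleen. Fcer1a, a chain of the high-affinity IgE receptor, and the basophil protease Mcpt8 were above background on all 16 arrays, and the Mcpt8 median was -0.89 in spleen and 0.69 in marrow. The mast cell proteases Cma1 and Mcpt4 had medians of -3.82 and -2.18 in spleen, against -6.52 and -3.97 in marrow. Other medians of the list also went both ways. Those of Cd200r3 and Il4 were -2.97 and -1.36 in spleen against -3.75 and -2.77 in marrow. That of the tryptase Tpsb2 was -3.37 in spleen against -3.10 in marrow. No split of the list by cell type is read from these medians. The primary granule genes of immature neutrophils had a mean log2 level of 4.35 to 4.97 in marrow and -0.16 to 5.18 in spleen, and the mature neutrophil genes 3.95 to 5.26 and 2.92 to 4.98. Eosinophil markers were called lower in spleen for 7 of 10 tested and higher for 0, with a median of -1.31. Itgam itself was 2.47-fold lower in spleen (-1.30, SE 0.29, limma adjusted p = 0.00937). The part of these cells in the differences of Hdc, Hnmt and Hrh4 was not tested.

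For Hrh1, the Gq-coupled H1 receptor, the 3 probes gave different pictures. Probe A_55_P2034081, which had the highest mean log2 level and therefore stands for the gene, had levels of -6.08 to -4.50 in spleen and -6.58 to -4.51 in marrow, which overlapped, and was above background on 15 of 16 arrays at signals of 12.2 to 99.8. Its fitted tissue difference was 0.05 (SE 0.24, limma adjusted p = 0.90). The 4 pairs of WT and STAT4-/- were all negative, from -1.31 to -0.07, and the 4 pairs of STAT6-/- and HDC-/-, which lie on the other slides, were all positive, from 0.55 to 0.91. The sign followed the slides, which cannot be told apart here from the genotypes.

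Probe A_55_P2045007 of Hrh1 was higher in spleen in all 8 matched pairs. It was above background on 8 of 8 spleen arrays at levels of -5.44 to -2.15, and on 3 of 8 marrow arrays, where levels ran from -8.50 to -5.37. The ranges overlapped only because the STAT4-/- spleen array on HFD (-5.44) lay below 2 marrow arrays, STAT4-/- control (-5.37) and HDC-/- control (-5.41). The fitted difference was 3.31 (SE 0.45, limma adjusted p = 0.00102 over 34733 probes). With normexp background correction it fell to 0.55 (limma adjusted p = 0.18), and since 5 marrow spots were not well above background, the size of the difference is poorly fixed. The third probe, A_66_P125883, was above background on 3 of 16 arrays only. When the 3 probes were averaged, Hrh1 was called higher in spleen (1.14, limma adjusted p = 0.00375).

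**Figure D3:**
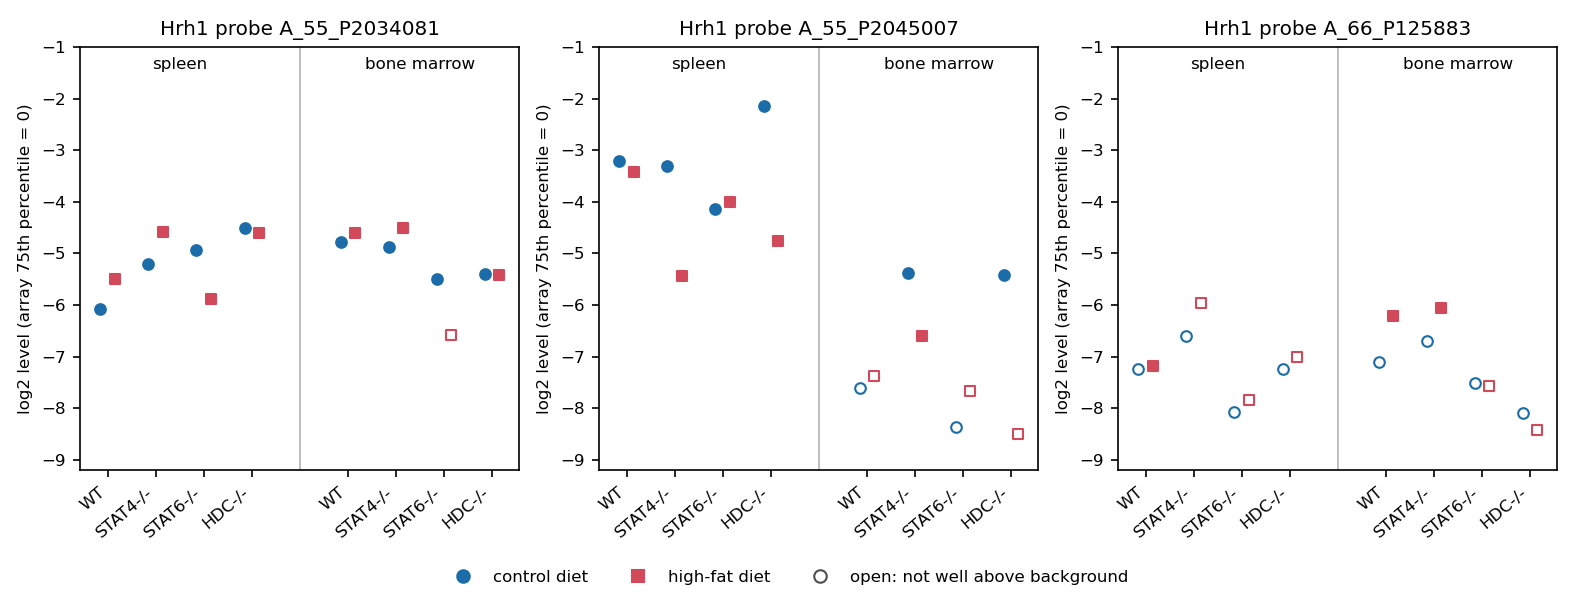
Log2 level (vertical axis, 75th percentile of each array = 0) of the 3 Hrh1 probes by genotype (horizontal axis) in spleen and bone marrow. Each point is 1 array, circles for control diet and squares for HFD, open where the spot was not well above background. Probe A_55_P2045007 is above background on 8 of 8 spleen and 3 of 8 marrow arrays, and probe A_66_P125883 on 3 of 16 arrays.

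Lymphoid markers were also higher in spleen. The 11 B cell markers had a mean log2 level of -1.08 to 2.44 in spleen and -3.11 to -0.35 in marrow, and the 12 T cell markers -1.66 to 1.55 and -3.05 to -1.69. The lowest spleen values of both lists were on the STAT4-/- HFD array, where the Hrh1 probe was also lowest in spleen. The highest marrow values of both lists were on the HDC-/- control array, where the probe stood at -5.41, just under its highest marrow level. The HDC-/- spleen array on control diet, with the highest B cell mean of 2.44, also had the highest level of the probe (-2.15). The HDC-/- spleen array on HFD went the other way, with the highest T cell mean of 1.55 and a probe level of -4.76, the second lowest in spleen. This pattern was not particular to lymphoid lists. The conventional and plasmacytoid dendritic cell and red pulp macrophage lists had their lowest spleen and highest marrow means on the same arrays. Markers called higher in spleen were 10 of 12 for conventional dendritic cells, 9 of 10 for natural killer cells and 9 of 14 for red pulp macrophages. The share called higher was 14.7% over all features. The part of lymphoid cells or of these other cells in the difference of the Hrh1 probe was not tested.

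The HFD comparison asked whether these genes differed between HFD and control arrays within a genotype and tissue. By limma, 0 of the 4 genes were called in spleen or in marrow, and none of their chosen probes had an unadjusted p under 0.05. In STAT4-/- and HDC-/- the control arrays had low Y-linked signal and the HFD arrays did not. In those pairs diet cannot be told apart from the difference in Y-linked and Xist signal. The background was 0% of 28972 features in either tissue, although 1302 features in spleen and 1765 in marrow had an unadjusted limma p under 0.05. The median of all features was 0.15 in spleen and 0.11 in marrow. A model with pairwise terms of genotype, tissue and diet called 2 features in spleen.

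Hdc in spleen was lower on HFD in WT (by -0.90), STAT6-/- (-0.50) and HDC-/- (-0.61), and higher on the arrays labelled STAT4-/- (0.44). The fitted difference was -0.39 (SE 0.28, limma adjusted p = 0.771). In marrow the 3 usable pairs were -0.10 in WT, -0.18 in STAT6-/- and 0.39 in HDC-/-, and the fit gave 0.04 (SE 0.33, limma adjusted p = 0.973). Hdc thus had no diet difference beyond the spread between pairs.

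Hnmt pairs differed in sign, with HFD minus control at 0.07 in WT, 0.81 in STAT4-/-, -0.86 in STAT6-/- and -0.39 in HDC-/- spleen. In marrow the same pairs gave 0.49, 0.39, -0.30 and -0.24. Its fitted values were -0.09 in spleen (SE 0.30, limma adjusted p = 0.926) and 0.08 in marrow (SE 0.30, limma adjusted p = 0.93). The signs matched between the tissues, but WT and STAT4-/-, the positive pairs, lie on other slides than STAT6-/- and HDC-/-, the negative pairs. Genotype and slide cannot be told apart here, and 1 array per group gives no test of a single genotype.

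Hrh4 varied widely between pairs. Its HFD minus control values were -0.35 in WT, 1.55 in STAT4-/-, -0.15 in STAT6-/- and 0.23 in HDC-/- spleen, and 0.74, 1.30, -1.02 and 1.71 in marrow. The fits gave 0.32 in spleen (SE 0.45, limma adjusted p = 0.831) and 0.68 in marrow (SE 0.45, limma adjusted p = 0.692). Over only WT and STAT6-/- the values were -0.25 and -0.14, and these genotypes hold none of the arrays with low Y-linked signal. For Hrh1, the pairs of probe A_55_P2034081 ran from -0.95 to 0.63 in spleen and from -1.09 to 0.36 in marrow. Those of probe A_55_P2045007 were wider, from -2.61 to 0.13 in spleen and from -3.09 to 0.70 in marrow. Its fitted difference over both tissues was -1.03 (SE 0.45, unadjusted p = 0.0441, limma adjusted p = 0.381), and 0.21 over only WT and STAT6-/-. Whether the diet difference in HDC-/- differed from that in WT was asked of the pairwise model, where 0 of the 4 genes were called or had an unadjusted limma p under 0.05 (background 0.0069% of 28965 features). The HDC-/- pairs in that model also differ in Y-linked signal.

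**Figure D4:**
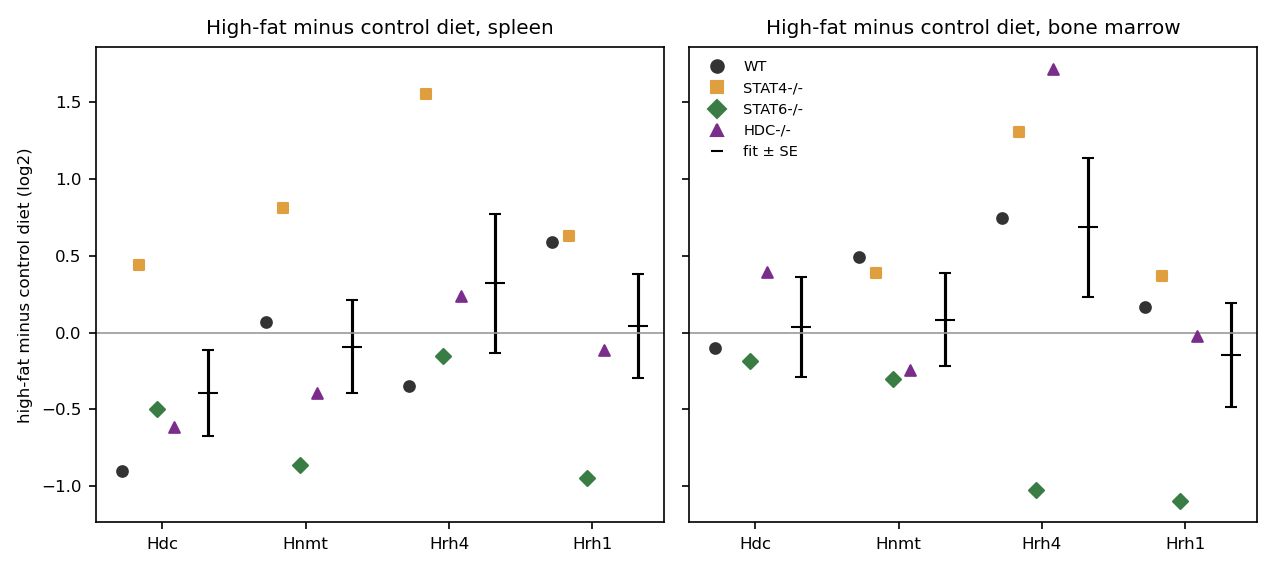
Log2 difference of HFD minus control diet (vertical axis) for Hdc, Hnmt, Hrh4 and Hrh1 probe A_55_P2034081 (horizontal axis) in spleen and in bone marrow. Each point is the pair of arrays of 1 genotype, and the bar is the fitted difference ± SE. No gene passed the test, and the pairs of Hrh4 in marrow spread from -1.02 to 1.71.

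The comparison of HDC-/- with WT asked whether the genes of the system differed between arrays of these labels. Only Hdc itself, 1 of 4 genes, was called (background 0.152%). Hdc differed by -3.72 (SE 0.28, limma adjusted p = 0.0014), a 13.2-fold lower level in 4 of 4 matched pairs. Against STAT6-/-, which shared the slides of HDC-/-, Hdc differed by -3.50 (SE 0.28, limma adjusted p = 0.00561, background 0.0207%), again in 4 of 4 pairs. That call was lost without the STAT6-/- spleen control, STAT6-/- spleen HFD, HDC-/- spleen control or STAT6-/- marrow control array, at differences of -3.57 to -3.41. Both contrasts use the same HDC-/- arrays, and HDC-/- against WT crosses slides. On control diet HDC-/- also differed from WT and STAT6-/- in Y-linked signal, and its marrow array was tissue-outlying. Genotype cannot be told apart from these differences here.

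Hnmt, the gene of histamine breakdown, was lower in HDC-/- than in WT in 4 of 4 matched pairs, but the fit gave -0.71 (SE 0.30, unadjusted p = 0.0418, limma adjusted p = 0.445) and it was not called. Its second probe was also lower in 4 of 4 pairs, at -0.90 (SE 0.35, unadjusted p = 0.0268, limma adjusted p = 0.387). Against STAT6-/- on the same slides, Hnmt by its first probe was lower in 4 of 4 pairs by a fitted -0.27 (SE 0.30, limma adjusted p = 0.907). The second probe gave -0.28 (SE 0.35, limma adjusted p = 0.908). In the marrow HFD pair it was higher in HDC-/- (1.15) than in STAT6-/- (0.89). Hrh4 differed between HDC-/- and WT by -0.19 (SE 0.45, limma adjusted p = 0.909) and Hrh1 by 0.26 (SE 0.34, limma adjusted p = 0.829), each lower in 2 of 4 pairs. The dim Hrh1 probe A_66_P125883 gave -0.75 (SE 0.27, unadjusted p = 0.0179, limma adjusted p = 0.344). It was well above background only on the WT spleen HFD, WT marrow HFD and STAT4-/- marrow HFD arrays. The probe passed the minimum for testing only through those arrays, so no direction is read from its value. In the test of whether HDC-/- minus WT differed between spleen and marrow, 0 of 4 genes were called (1, Hrh1, had an unadjusted limma p under 0.05), although 16.6% of all features were, with a median of 0.60 over all features. That background fell to 0 features with quantile normalization.

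Neither STAT genotype was called for any of the 4 genes, and 0 of their chosen probes had an unadjusted limma p under 0.05. STAT4 transmits IL-12 signals and STAT6 transmits IL-4 and IL-13 signals. In STAT6-/- minus WT (background 0.0311%), Hdc differed by -0.23 (SE 0.28, limma adjusted p = 0.98) and Hnmt by -0.44 (SE 0.30, limma adjusted p = 0.901), with Hdc and Hnmt each lower in 3 of 4 pairs. In STAT4-/- minus WT by label (background 0.0242%), 0 of 4 genes were called. The spleen Hdc levels of 4.56 and 5.00 lay within the 4.14 to 5.04 of WT spleen. The usable marrow array, at 5.24, lay below WT marrow (5.52 and 5.63), as would the left-out spot (3.92 if kept). The dim Hrh1 probe A_66_P125883, which is not the chosen one, differed by -0.82 (SE 0.27) in STAT6-/- minus WT. It differed by 0.61 (SE 0.27) in STAT4-/- minus WT by label. Both passed the unadjusted threshold but were not called. Between HDC-/- and STAT6-/-, which share slides, this probe differed by 0.06 (SE 0.27). As the probe was not well above background on any STAT6-/- or HDC-/- array, no conclusion is drawn from these values. The 3 contrasts against WT share the WT arrays.

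Beyond the 5 genes, 64 genes of the wider histamine system were followed in 6 lists, of which 63 were tested. Between tissues 26 of the 63 were called, 11 higher and 15 lower in spleen, a share of 41.3% against 32.1% of all features. Their median difference was -0.26, against -0.06 over all features. In each of the diet comparisons and in the genotype comparisons over both tissues, 0 of them were called by limma, with 1 to 9 at an unadjusted p under 0.05.

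Among the genes of other breakdown steps and of histidine use, 1 was higher and 3 were lower in spleen of 9 tested, with a median of -0.47. Aldh7a1, an aldehyde dehydrogenase, was 6.01-fold higher in spleen (2.59, SE 0.39, limma adjusted p = 0.00171). Hal, the histidine ammonia-lyase that takes histidine away from histamine synthesis, was 3.29-fold lower (-1.72, SE 0.28, limma adjusted p = 0.00228). Aldh2, the mitochondrial aldehyde dehydrogenase, was 2.66-fold lower (-1.41, SE 0.31, limma adjusted p = 0.00874). Each held in 8 of 8 matched pairs.

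Of the 11 transport and storage genes, 2 were higher and 1 was lower in spleen, with a median of -0.24. Slc29a4, a membrane transporter of monoamines including histamine, was 3.40-fold higher in spleen in 8 of 8 pairs. Of the 6 cofactor and methyl supply genes, 3 were higher and 1 was lower, with a median of 0.63.

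In the signalling arms, 7 of 12 Gq genes of H1 were called, 3 higher and 4 lower in spleen, with a median of -0.42. Plcb2, a phospholipase C of blood cells, was lower by a fitted -1.03 and Prkcd, a protein kinase C, by -0.80, each in 8 of 8 pairs. Of 13 Gs genes of H2, 1 was higher and 2 were lower, with a median of 0.05. Adcy4, an adenylyl cyclase above background on 6 of 8 marrow arrays, differed by 1.73, Prkar1a by -0.88 and Prkaca by -0.72, subunits of protein kinase A, each in 8 of 8 pairs. With normexp, Adcy4 was no longer called (0.37, limma adjusted p = 0.259). Of 12 Gi genes of H4, 1 was higher and 4 were lower, with a median of -0.34. Rgs18, a regulator of G protein signalling in myeloid cells and platelets, was 3.30-fold lower in spleen in 8 of 8 pairs. Prkcd and Prkaca each lost the call in many settings, among them without the arrays of low Y-linked signal.

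The genes whose levels followed each member most closely were taken from those above background on every array used, by Pearson correlation of the deviations from the tissue means. Correlations describe these arrays, which share slides, depth and cell makeup. For Hdc, over 11 arrays without HDC-/- and among 13220 candidates, they included Plk3 (r = 0.94), Lpcat2 (0.94), Cask (0.94) and Cdk2ap2 (0.92). Without the 2 arrays farthest from the median, these values were 0.84 to 0.90. These genes also led when tissue means were not removed.

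For Hnmt, over 16 arrays and 12777 candidates, they included Krt86 (r = 0.89), Ranbp6 (0.89), Csf3r (0.89) and Cadps2 (0.87). Csf3r encodes the receptor of granulocyte colony-stimulating factor. These values were 0.78 to 0.84 without the 2 farthest arrays. For Hrh4 they were Wdr63, Rin3, Rbfa, Vamp8 and Il12rb2, with r of 0.92 for each and 0.85 to 0.88 without the 2 farthest arrays. Hrh1 by probe A_55_P2034081 followed Ms4a13 (0.83), Olfr181 (0.82), Tet1 (0.81), Zfp111 (0.79) and 1700027J07Rik (0.79), which were 0.59 to 0.74 without the 2 farthest arrays. Without removal of the tissue means, 2 of 5 genes stayed for Hrh1, 1 of 5 for Hrh4, and of the Hnmt genes named only Cadps2. Between members, the deviations of Hdc correlated with those of Hnmt at 0.69 over the same 11 arrays, and with those of Hrh4 at 0.47. Among the 13220 candidates for Hdc these values stood at percentiles 96.4 and 83.2.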

How the data were processed

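The deposited files hold the spot intensities of 16 one-colour (Cy3) arrays, which the authors made with Agilent Feature Extraction 11.0.1.1 per the file headers, background-subtracted and not scaled between arrays. Probes were named through the accessions in the files and a RefSeq symbol table (27234 of 39429 probes). Spots marked as outliers were left out (305 probes on some array). Log2 intensities minus the 75th percentile of each array were tested on the brightest probe of each gene, where 2 or more arrays showed it well above background, with limma 3.58.1 in R 4.3.3: a mean per genotype and tissue, a diet term per tissue (6 residual degrees of freedom), two-sided, Benjamini-Hochberg over all features, called under 0.05. The code was tested on simulated data. Normexp (offset 50) used the median spot signal, since the files used here hold no mean. The number of arrays limits the precision. Members, lists and alternatives were chosen with earlier results of these data known. Of the lists, genes called with 1 direction in all pairs are named, up to 4 a list; likeness names up to 5 genes a member; some genes that these rules pick are not reported here. Slides are those of the scan identifiers.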

Additional observations from a re-analysis of the deposited data

Results flagged for a closer look

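On the STAT6-/- marrow array on HFD, Hrh1 by probe A_55_P2034081 had a level of -6.58, far below the 7 other marrow arrays (-5.49 to -4.51), and the spot was not well above background there. Chance flags about 1 in 20 groups, and 8 groups of members were looked at. The probe's diet values in STAT6-/- marrow rest on that array.

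Hrh3, the receptor of nerve cells, is not among the 5 genes, but its difference between HDC-/- and WT was larger in spleen than in marrow by 2.20 (SE 0.65, limma adjusted p = 0.044). Its levels were -4.62 and -4.08 in HDC-/- spleen against -5.65 and -5.40 in WT spleen, and -5.50 and -4.27 in HDC-/- marrow against -3.83 and -3.90 in WT marrow (control diet first). In that comparison 16.6% of all features were called with a median of 0.60. The limma adjusted p rose to 0.468 with quantile normalization (1.16), to 0.176 with median scaling (1.51), to 0.163 without the 2 tissue-outlying arrays (1.56) and to 0.185 without the HDC-/- marrow control array alone (1.56).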

How the results depend on the processing

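With 1 array per group, the groups' residual spread and the array number limit every call. In the tissue comparison 9292 features were called, and 3782 without the arrays of low Y-linked signal. The 44 features of HDC-/- minus WT became 25 with normexp, 122 in the pairwise model, 68 with a variance trend, 20 without the tissue-outlying arrays and 4 without those of low Y-linked signal. The 9 features of STAT6-/- minus WT became 16 in the pairwise model and 16 without HDC-/-. The 7 of STAT4-/- minus WT became 25 in the additive model (with or without slide as a random block) and in the pairwise model, 14 without HDC-/-, 3 without the tissue-outlying arrays and 2 without those of low Y-linked signal. The 6 of HDC-/- minus STAT6-/- became 14 with quantile normalization and in both additive models, 40 in the pairwise model, 3 without the tissue-outlying arrays and 2 without those of low Y-linked signal. For HDC-/- minus WT, spleen minus marrow, 4810 became 0 with quantile normalization, normexp or without the low Y-linked arrays, 2041 with median scaling and 2178 without the tissue-outlying arrays. The pairwise model called 2 features for diet in spleen and 6 for diet over both tissues (0 otherwise), and diet by HDC-/- went from 2 to 1 with quantile normalization.

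Tissue differences that lost their call were Hdc with the faulty spot kept (-0.65), and without the low Y-linked arrays Hnmt (-1.13), its second probe (-0.85) and Hrh4 (-1.31). The second Hnmt probe also lost it over only WT and STAT6-/- (-0.91) and without HDC-/- (-0.75), as did Hrh1 probe A_55_P2045007 with normexp (0.55). Hrh1 as a gene was -0.071 with quantile normalization, -0.61 with normexp, -0.073 without the tissue-outlying arrays, -0.0029 without the low Y-linked arrays, -0.24 over only WT and STAT6-/-, -0.23 without HDC-/- and 1.14 as the mean of its probes, which was called.

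Uncalled diet differences changed sign for Hnmt in spleen (0.0075 without HDC-/-) and marrow (-0.0044 in both additive models). Those of Hrh4 became -0.089 in spleen without the tissue-outlying arrays and, over only WT and STAT6-/- or without the low Y-linked arrays, -0.25 in spleen and -0.14 in marrow. Hdc in marrow became -0.30 with the spot kept, -0.16 in both additive models and -0.14 over only WT and STAT6-/-, without HDC-/- or without the tissue-outlying arrays. For Hrh1 probe A_55_P2045007, diet over both tissues became 0.21 over only WT and STAT6-/- or without the low Y-linked arrays. HDC-/- minus WT changed sign for Hrh1 with normexp (-0.060) and the mean of probes (-0.10), and for Hrh4 without the tissue-outlying arrays (0.15) or of low Y-linked signal (0.39).

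With each array left out in turn, called features ranged from 5813 to 10803 (tissue), 8 to 216 (HDC-/- minus WT), 3 to 16 (STAT6-/- minus WT), 3 to 8 (STAT4-/- minus WT), 2 to 14 (HDC-/- minus STAT6-/-) and 0 to 6047 (HDC-/- minus WT, spleen minus marrow). Tissue differences ranged from -0.96 to -0.68 for Hdc, -1.47 to -0.90 for Hrh4 and -0.12 to 0.21 for Hrh1. Hdc in HDC-/- minus STAT6-/- ranged from -3.63 to -3.36, and Hrh4 in HDC-/- minus WT from -0.54 to 0.15. Diet differences ranged from -0.14 to 0.15 for Hdc in marrow, -0.053 to 0.21 for Hnmt in marrow, -0.39 to 0.16 for Hnmt in spleen and -0.089 to 0.54 for Hrh4 in spleen. Except where the construction shows it (fewer arrays), the cause was not tested. Of 310 alternatives for the 10 named genes of the wider lists, 281 kept the call, 29 lost it and 0 changed sign.

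No paired analysis was possible because each group holds 1 array and the groups share fewer than 2 replicate numbers, so no block by replicate number exists. The diet terms already compare arrays within each genotype and tissue, and the pairwise model holds genotype by diet for the tissue pairs. Slide as a random block was run in an additive model added after the data were seen (correlation 0.0036), and not in the model with a mean per genotype and tissue, which already holds the slide. No Hdc value was obtained without the STAT4-/- marrow control array or without the low Y-linked arrays, which leave no usable STAT4-/- marrow spot.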
